A study of Mus musculus with 6 samples.

Results

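The genes described are those of the respiratory chain and ATP synthase, measured by RNA-seq in sorted cells of the embryonic mouse brain. They were chosen by name from the table of normalized values, as genes for the subunits of complexes I to V and for cytochrome c, with the assembly factors that share the Ndufaf name, and 1 name ending in -ps1 was left out. The choice by name also took in Atp5l2, which GENCODE M21 lists as a pseudogene, and Atp5sl, which M21 names Dmac2 and which is known as an assembly factor of complex I; both are counted with complex V by their names. This gave 104 of 18065 genes, of which 92 are nuclear and 12 are mitochondrially encoded. Of these, 91 nuclear and all 12 mitochondrial genes had enough reads to be tested. The study asked how loss of a copy of Magoh, which belongs to the exon junction complex that marks spliced mRNA, alters the transcriptome of the medial ganglionic eminence (MGE), the part of the ventral telencephalon that produces cortical interneurons. All 6 samples came from C57BL/6 embryos at stage E11.5 that carried the driver Nkx2.1-Cre and the reporter ROSAloxSTOPloxTdTomato, and tdTomato-positive telencephalic cells were sorted by flow cytometry. The 4 controls (control 1 to 4) had these alleles alone, and the 2 heterozygous samples (het 1 and het 2) also had the genotype Magoh lox/+, so that Cre and the reporter were common to both groups. The Nkx2.1 driver limits recombination to its lineage. The labels do not say whether the samples came from separate embryos, so a p-value measures only the spread between these samples.

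The respiratory chain passes electrons from NADH through complex I, or from succinate through complex II, to ubiquinone, and on through complex III, cytochrome c and complex IV to oxygen. The proton gradient built along the way drives ATP synthase, which is complex V. Complexes I, III, IV and V combine subunits encoded in the nucleus with subunits encoded in mitochondrial DNA, whereas complex II is encoded in the nucleus alone.

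Total counts were 37.4 to 49.2 M (in units of 1e+06) per library, and a count of 0 allows at most 0.061 to 0.0802 CPM, the read count scaled to library size, for counting error only. Magoh (chr4:107879755-107887424, GRCm38) stood at 68.1, 118, 63.6 and 74.3 CPM in controls 1 to 4 and at 57.1 and 48.6 CPM in het 1 and het 2. Both heterozygous libraries were below all controls, with an adjusted p of 0.85 (edgeR), and the sources used here do not give whether the counted exons include the floxed ones. The 8 markers of the MGE lineage summed to 878 to 1720 CPM in the controls and to 1380 and 2410 CPM in het 1 and het 2, and 4 neuron markers summed to 1450 to 2180 CPM in the controls and to 2650 and 3170 CPM. The 7 blood markers in the table summed to 29.6 to 133 CPM in the controls and to 362 and 0.61 CPM, and 5 mesenchyme markers to 95.3 to 157 CPM and to 150 and 59.6 CPM. No marker of these lists was at 0 in every library. A pair of libraries stood apart before any test: control 2 and het 1 had 0 Y-linked reads (Uty, Kdm5d, Ddx3y and Eif2s3y), against 3453 to 4291 in the other 4. In the same pair long transcripts were low relative to short ones: the median deviation from the control mean of genes with at least 8000 nt of exons, minus that of genes under 1000 nt, was -0.77 and -0.37 on the log2 scale, against 0.08 to 0.34 in the others. The medians over all nuclear and over all mitochondrial members are therefore also given without this pair, and those of single complexes and related lists are not.

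No respiratory chain gene was called as differing with the genotype. By edgeR, 0 of 91 nuclear and 0 of 12 mitochondrial members had an adjusted p under 0.05, where 0 of all 16495 tested genes did, a background of 0%. DESeq2 called 0 members too, where it called 74 of 15820 genes, or 0.468%. At an unadjusted p under 0.05, edgeR gave 0 members, against 944 genes or 5.72% of all tested. The smallest p of a nuclear member was 0.0753 (Atp5s, adjusted p = 0.872, edgeR), and the smallest of a mitochondrial member was 0.245 (mt-Nd2, adjusted p = 0.975, edgeR). Both heterozygous libraries lay above all 4 controls for 0 members, against 6.17% of all tested genes, and below all controls for 2 members, Sdha and Atp5s, against 8.14% of all tested genes. The median log2 fold change, heterozygous over control, was 0.04 over the nuclear members and -0.22 over the mitochondrial members, beside -0.03 over all tested genes. Of the nuclear members 60 of 91 were above 0, or 65.9%, where 46.1% of all tested genes were, and of the mitochondrial members 0 of 12 were. Without control 2 and het 1 the medians were 0.12 for nuclear and -0.67 for mitochondrial members. That setting compares het 2 alone with the remaining controls, so its medians describe a single library. Leaving out het 1 or het 2 also keeps a lone heterozygous library, which is assumed to vary like the controls. Leaving out single libraries moved the nuclear median from -0.10 (without het 1) to 0.27 (without control 2). It moved the mitochondrial median from -0.92 (without het 1) to 0.29 (without het 2). The direction of both medians thus depended on the libraries kept. Bulk samples cannot tell fewer cells of a type from less RNA per cell.

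**Figure D1:**
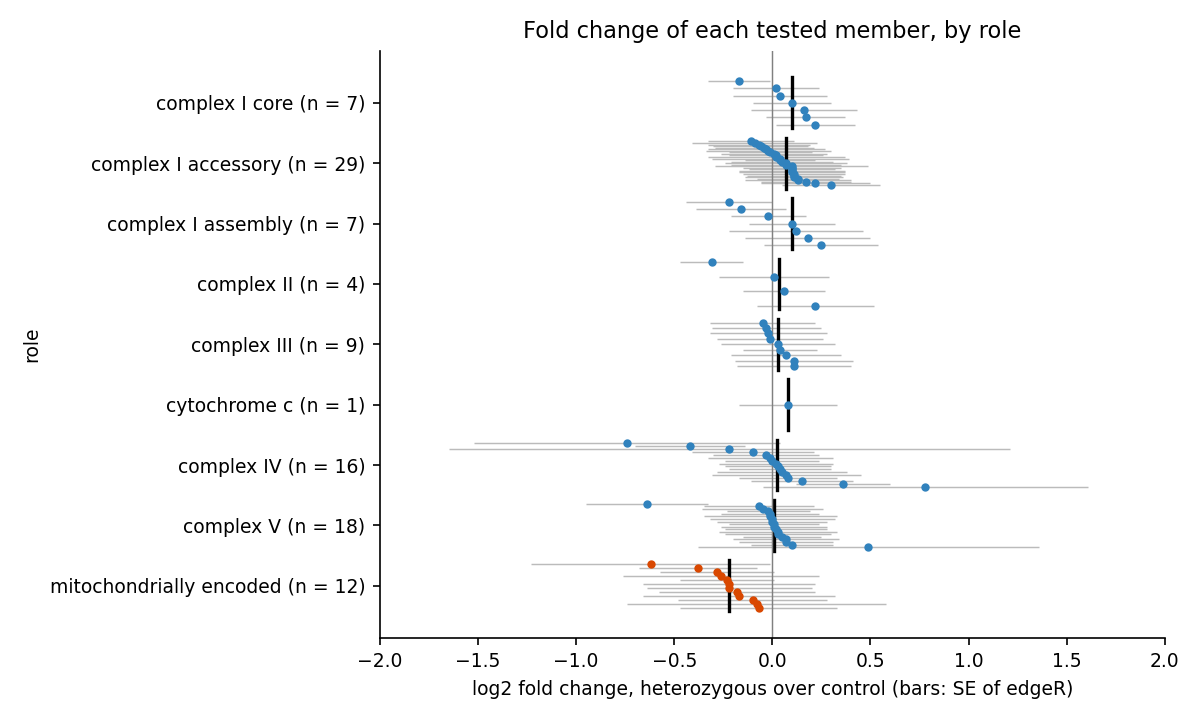
Log2 fold change, heterozygous over control, of each tested member (points) with edgeR's standard error (bars), by role, with the median of each role as a black line. The medians of the nuclear roles lie between 0.01 and 0.10, the 12 mitochondrially encoded genes all lie below 0 with a median of -0.22, and no gene passed the test.

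Complex I, the NADH dehydrogenase, is the largest of the complexes. Its 7 nuclear core subunits, which hold the flavin and the iron-sulfur clusters, had a median log2 fold change of 0.10 (range -0.17 to 0.22), with 6 of 7 above 0. Its 29 accessory subunits had a median of 0.07 (-0.11 to 0.30), with 21 above 0. The 7 assembly factors had a median of 0.10 (-0.22 to 0.25), with 4 above 0. Ndufs8, a core subunit that carries iron-sulfur clusters, stood at 36.5, 55.0, 39.4 and 40.1 CPM in the controls and at 53.3 and 46.5 CPM. Ndufs1, the largest core subunit, was lower in the heterozygous libraries than in controls 1, 2 and 4, with 75.6, 86.0, 69.4 and 86.6 CPM in the controls and 69.6 and 71.8 CPM. For both genes the heterozygous libraries lay within the control range.

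Of the accessory subunits of complex I, Ndufa6 had the smallest p. It stood at 42.5, 65.6, 34.9 and 46.9 CPM in the controls and at 64.3 and 52.6 CPM in het 1 and het 2, so that both heterozygous libraries were above controls 1, 3 and 4 and below control 2. The log2 fold change was 0.30 (SE 0.25, adjusted p = 0.984, edgeR). Ndufa11, a membrane arm subunit, stood at 70.4 and 66.2 CPM in control 2 and het 1 and at 39.4 to 47.0 CPM in the other 4 libraries. Ndufs5 stood at 36.0 and 37.4 CPM in the same pair and at 24.3 to 26.6 CPM in the others. Ndufa10 was an exception among the accessory subunits: it was lowest in control 2, at 69.1 CPM, where the other controls had 94.7, 87.0 and 98.4 CPM and the heterozygous libraries 89.2 and 90.8 CPM. It was named after its values were seen. The accessory subunits spanned 1.90 CPM per kb (Ndufb2) to 123 CPM per kb (Ndufa7, in the matrix arm) in the controls. A level per length depends on the principal transcript used, which had 4371 nt for Ndufb2 and 528 nt for Ndufa7. The assembly factors lay lower, at 5.58 CPM per kb (Ndufaf4) to 23.2 CPM per kb (Ndufaf2), where the median of all tested genes was 5.55 CPM per kb. Their principal transcripts had 3632 nt (Ndufaf4) and 678 nt (Ndufaf2). In CPM Ndufaf4 was above Ndufaf2, at 20.3 against 15.7 on average in the controls. Ndufaf3 stood at 13.5, 23.7, 12.8 and 14.2 CPM in the controls and at 21.4 and 16.8 CPM, and Ndufaf4 at 17.0, 25.9, 19.2 and 18.9 CPM and at 16.7 and 18.1 CPM. Control 2 was the highest library for both.

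Complex II, succinate dehydrogenase, also works in the citrate cycle, and its 4 genes differed in how they ranked the libraries. Sdha (chr13:74322254-74350280, GRCm38), the flavoprotein that oxidises succinate, stood at 226, 223, 222 and 257 CPM in controls 1 to 4 and at 179 and 197 CPM in het 1 and het 2. The controls averaged 232 ± 16.6 CPM (SD, n = 4) and the heterozygous libraries 188 ± 12.9 CPM (SD, n = 2), and the groups did not overlap. The log2 fold change was -0.31 (SE 0.16) with an adjusted p of 0.887 in edgeR and 0.816 in DESeq2, so the difference did not pass the test. The log2 fold change ranged from -0.38 to -0.20 over the 19 alternative settings. As these reuse the same libraries and the groups do not overlap, a constant sign adds no support. Sdhb, the iron-sulfur subunit, stood at 88.7, 117, 80.3 and 84.9 CPM in the controls and at 110 and 82.7 CPM. The membrane anchors Sdhc and Sdhd were highest in control 2, at 217 and 125 CPM, and next highest in het 1, at 185 and 104 CPM. Per length, Sdha and Sdhb were close, at 80.1 and 81.1 CPM per kb in the controls, and Sdhc lowest at 44.8 CPM per kb. In CPM Sdhc was above Sdhb, at 142 against 92.7 on average in the controls. Their principal transcripts had 3171 nt (Sdhc) and 1142 nt (Sdhb).

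Complex III, the cytochrome bc1 complex, had 9 nuclear members with log2 fold changes from -0.05 to 0.11 and a median of 0.03. Uqcrh, the hinge protein, had the highest level per length of the nuclear genes of the complex, 247 CPM per kb in the controls, and stood at 116, 204, 102 and 119 CPM in controls 1 to 4 and at 168 and 123 CPM in het 1 and het 2. Cyc1, the cytochrome c1 that hands electrons to cytochrome c, stood at 110, 196, 109 and 115 CPM in the controls and at 143 and 121 CPM. Cytochrome c itself, Cycs, stood at 67.2, 99.7, 58.9 and 57.2 CPM in the controls and averaged 74.5 ± 5.02 CPM (SD, n = 2) in the heterozygous libraries. In all 3 genes the heterozygous libraries lay inside the control range, which control 2 set at its upper end. Uqcrq, a small subunit of the complex, stood at 94.7 CPM in control 2 and at 51.3 to 52.2 CPM in the other controls, with 76.6 and 58.4 CPM in het 1 and het 2.

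Complex IV, cytochrome c oxidase, has subunits that come in paired genes, of which some are known for muscle, lung or testis. In these cells the widely expressed gene of each pair was at the higher level. Cox4i1, the regulatory subunit and the highest nuclear gene of the complex per length, spanned 240 to 425 CPM per kb over the 6 libraries, where Cox4i2, known for oxygen-responsive expression in lung, spanned 0.225 to 1.81 CPM per kb. Cox6a1 spanned 207 to 361 CPM per kb, and the heart and muscle gene Cox6a2 had 16 reads in all, 14 of them in control 4, and was not tested. Cox7a2 spanned 94.4 to 240 CPM per kb, and the muscle gene Cox7a1 0 to 2.70 CPM per kb, with 140 reads in all. Cox8a spanned 206 to 389 CPM per kb, and Cox8b, Cox8c and Cox7b2, which are in the raw count table alone, had 0 reads in every library. The markers of striated muscle and heart summed to 1.64 to 2.77 CPM in the controls and to 0.259 and 0.448 CPM in het 1 and het 2. Cox6b2, known as the testis gene, was the exception in level: it spanned 8.94 to 16.9 CPM per kb, and Cox6b1 was 13.3-fold to 29.1-fold above it within a library. Cox6b2 stood at 7.26, 9.88, 8.13 and 5.80 CPM in the controls and at 5.23 and 6.41 CPM in het 1 and het 2, with overlap. Ndufa4, which bears a complex I name and is a subunit of complex IV, spanned 148 to 316 CPM per kb, and its paralog Ndufa4l2 0.268 to 1.5 CPM per kb.

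**Figure D2:**
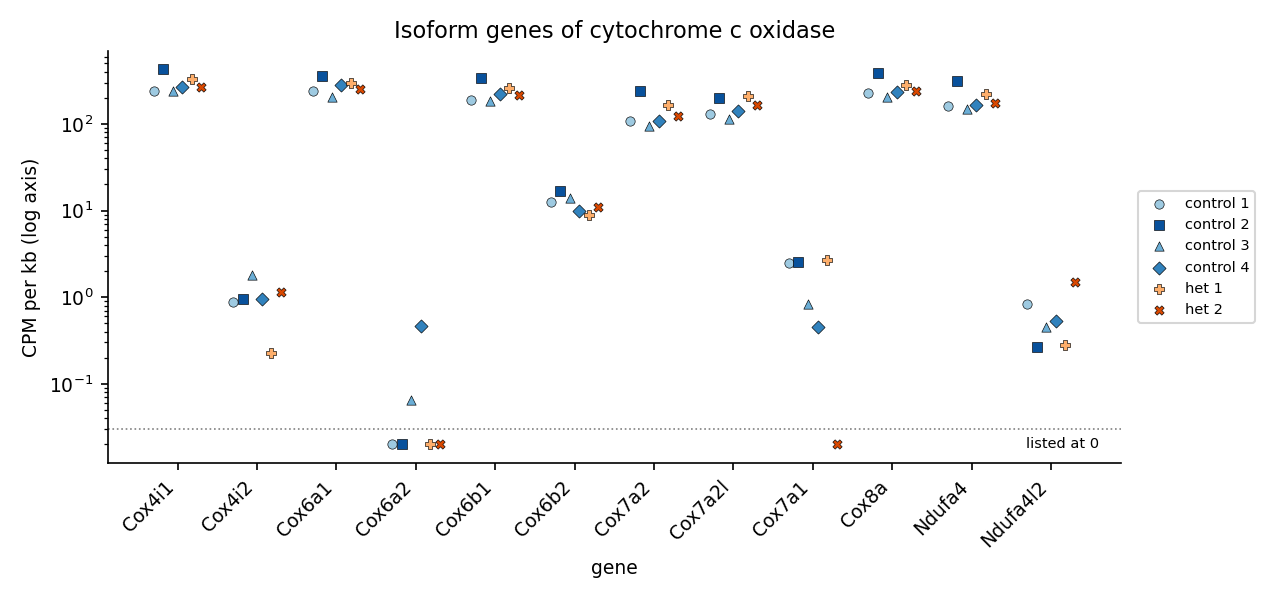
Level of paired complex IV genes in CPM per kb (log axis) in each of the 6 libraries. Cox6b2, at 8.94 to 16.9 CPM per kb, lies above the other minor isoforms, Cox4i2, Cox6a2, Cox7a1 and Ndufa4l2, which are at 2.70 CPM per kb or less.

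Cox7a2l (chr17:83501918-83517330, GRCm38), known for joining complexes III and IV in supercomplexes, stood at 140, 214, 124 and 150 CPM in controls 1 to 4 and at 225 and 178 CPM in het 1 and het 2. Both heterozygous libraries were above controls 1, 3 and 4, and het 2 was below control 2. The log2 fold change was 0.36 (SE 0.24, adjusted p = 0.948, edgeR) and ranged from 0.19 to 0.56 over the alternative settings. The 16 tested members of complex IV had a median log2 fold change of 0.02, with 9 above 0.

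Complex V, ATP synthase, held the gene with the highest level per length of the nuclear members. Atp5b, the catalytic beta subunit, stood at 1160, 1620, 1050 and 1240 CPM in controls 1 to 4 and at 1340 and 1160 CPM in het 1 and het 2, which is 662 CPM per kb in the controls. The alpha subunit gene Atp5a1 followed at 455 CPM per kb and Atp5g3, for the c subunit of the membrane ring, at 327 CPM per kb. The other c subunit genes gave 187 CPM per kb (Atp5g2) and 21.4 CPM per kb (Atp5g1). In CPM these were closer, at 137 and 101 on average in the controls, as the principal transcripts used had 731 and 4715 nt. The 18 genes had a median log2 fold change of 0.01, with 11 above 0. Atp5s (chr12:69724950-69744660, GRCm38), for the coupling factor B that is not part of the core enzyme, stood at 2.49, 2.98, 2.87 and 3.0 CPM in the controls and at 1.65 and 1.99 CPM in het 1 and het 2. The controls averaged 2.84 ± 0.235 CPM (SD, n = 4) and the heterozygous libraries 1.82 ± 0.243 CPM (SD, n = 2), and the groups did not overlap. The log2 fold change was -0.64 (SE 0.31, adjusted p = 0.872 in edgeR and 0.803 in DESeq2), from -0.79 to -0.32 over the alternative settings. By level per length, complexes V, IV and III were highest among the nuclear groups, with medians of 163, 138 and 114 CPM per kb in the controls. The median was 75.7 CPM per kb for complex II and 67.9 and 56.8 CPM per kb for the accessory and core subunits of complex I. Cycs, with a principal transcript of 3123 nt, gave 22.7 CPM per kb. Of the 92 nuclear members, 12 had a transcript at least 95% identical over at least 50% of its length to a gene elsewhere. Among them were Atp5g2, Atp5l, Atp5h, Uqcrb and Ndufs3. Reads of these 12 genes may be split or shared, and their levels are uncertain. Copies over less of the principal transcript were not counted, so this does not clear the other nuclear members.

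The mitochondrially encoded members cover subunits of complexes I, III, IV and V, made from long transcripts that start in the control region and are cut into single RNAs. In the controls mt-Co1, the catalytic subunit of complex IV, reached 5830 ± 1850 CPM per kb (SD, n = 4), mt-Cytb of complex III 4500 ± 1180 CPM per kb and mt-Nd1 of complex I 3860 ± 1550 CPM per kb. The other complex I genes mt-Nd2, mt-Nd4 and mt-Nd5 gave 1190, 987 and 856 CPM per kb, and mt-Nd6, the only one of these on the opposite strand, 73.2 CPM per kb. A block of neighbouring genes was far lower: mt-Co2 gave 19.2 CPM per kb, mt-Atp6 14.4, mt-Co3 22.4, mt-Nd3 4.42 and mt-Nd4l 2.26 CPM per kb. The lowest of the 6 heavy-strand transcript genes outside the block was 38.2-fold the highest inside it. The block held 0.167% to 0.217% of the reads of mitochondrial mRNA genes in every library, so it was low in both genotypes. mt-Atp8, between mt-Co2 and mt-Atp6, is in the raw count table alone, with 7, 5, 1 and 2 reads in the controls and 3 and 2 reads in het 1 and het 2.

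**Figure D3:**
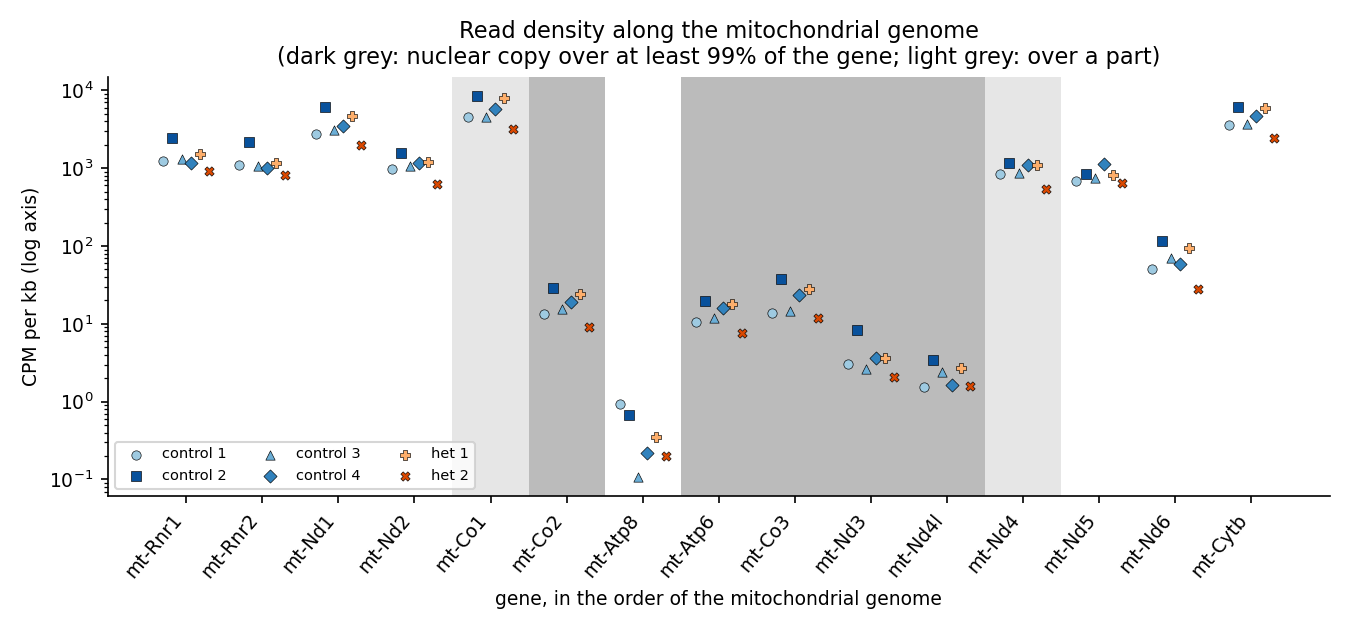
Read density in CPM per kb (log axis) of each mitochondrial rRNA and mRNA gene in the order of the mitochondrial genome, with a point per library. The genes under dark grey, mt-Co2, mt-Atp6, mt-Co3, mt-Nd3 and mt-Nd4l, lie at 1.53 to 37.9 CPM per kb in single libraries, and het 2 is the lowest library for 11 of the 12 mRNA genes among the members.

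All 5 genes of the block lie over at least 99% of their length in an annotated copy of mitochondrial DNA in the nuclear genome, on the minus strand of chr1:24611535-24616197 (GRCm38), at 99.71% to 100% identity. Copies in this stretch also cover the end of mt-Co1 (31.3% of its length at 99.79% identity) and the start of mt-Nd4 (63.6% at 100%). For mt-Nd1, mt-Nd2, mt-Nd6 and mt-Cytb no annotated copy was found that was at least 95% identical over at least 50% of the length, and other copies of mt-Co1 and mt-Nd5 elsewhere were 97.6% and 95.18% identical. The first 100 bases of mt-Co2 and of its copy Gm28661, and the first 100 bases of mt-Nd3 and of its copy Gm28438, are shown because they let a reader see how little tells the copies apart, with the differing base in capitals. All are given in the sense of the mitochondrial gene.
mt-Co2: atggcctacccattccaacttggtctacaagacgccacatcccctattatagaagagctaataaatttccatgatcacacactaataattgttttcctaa
Gm28661: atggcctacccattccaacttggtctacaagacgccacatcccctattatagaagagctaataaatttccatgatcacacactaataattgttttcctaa
mt-Nd3: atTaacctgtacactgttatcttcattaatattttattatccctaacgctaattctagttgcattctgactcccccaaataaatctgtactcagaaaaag
Gm28438: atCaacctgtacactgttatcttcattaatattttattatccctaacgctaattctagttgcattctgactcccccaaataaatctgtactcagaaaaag
The mt-Co2 pair has no difference in this window, and the mt-Nd3 pair differs by T3C, counted from 1 at the first base of the mitochondrial gene. The end of mt-Co1 that is copied in Gm29216 differs by A1066T, counted the same way. Of the copies in this stretch the count table lists Gm10222, the copy of mt-Nd4l, with 52, 76, 92 and 108 reads in the controls and 74 and 47 reads in het 1 and het 2, against 17 to 37 reads of mt-Nd4l. A read that matches both places equally cannot be assigned to either, and the sources used here do not give how the counting treated such reads. The values of these 5 genes are therefore uncertain as levels of mitochondrial RNA, and so are those of mt-Nd4 and mt-Co1 in the parts that are copied. For mt-Atp8 no annotated copy was found in this stretch, but it lies between mt-Co2 and mt-Atp6, and its few reads are uncertain too.

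Between genotypes, the mitochondrial genes separated the heterozygous libraries from each other more than from the controls. mt-Co1 stood at 6990, 13100, 7100 and 8850 CPM in controls 1 to 4 and at 12300 and 4860 CPM in het 1 and het 2. mt-Cytb stood at 4100, 6980, 4160 and 5370 CPM in the controls and at 6860 and 2780 CPM. In both genes het 1 was close to control 2 and het 2 was below every library. mt-Nd2 stood at 1010, 1610, 1120 and 1190 CPM in the controls and at 1250 and 640 CPM, and its log2 fold change was -0.38 (SE 0.30, adjusted p = 0.975, edgeR). mt-Nd4 stood at 1140, 1600, 1200 and 1500 CPM and at 1500 and 750 CPM, with a log2 fold change of -0.28 (SE 0.29, adjusted p = 0.999, edgeR). Without het 2 these changes were 0.01 for mt-Nd2 and 0.13 for mt-Nd4, on the other side of 0. mt-Nd5 was the least even with the others: it stood at 1250, 1540, 1370 and 2080 CPM in the controls, highest in control 4, and at 1500 and 1160 CPM in het 1 and het 2, with a log2 fold change of -0.23 (SE 0.24, adjusted p = 0.999, edgeR). Over the 12 genes het 2 was the lowest library for 11 and lay below controls 1, 3 and 4 for 11. How often het 2 was lowest over all tested genes was not counted. The median over the 12 genes went from -0.22 to -0.92 without het 1, to 0.29 without het 2 and to 0.05 without control 2. Leaving out either heterozygous library kept the other as a lone sample.

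The ratio of mitochondrial to nuclear members set het 2 apart. Mitochondrial members took 1.69%, 2.96%, 1.84% and 2.28% of all counts in controls 1 to 4 and 2.83% and 1.21% in het 1 and het 2. Nuclear members took 0.841%, 1.28%, 0.801% and 0.923% in the controls and 1.09% and 0.895% in het 1 and het 2. The ratio of the first to the second was 2.01, 2.32, 2.30 and 2.47 in the controls, 2.59 in het 1 and 1.35 in het 2. Het 1 was thus above and het 2 below all controls, and the group means were 2.27 ± 0.19 (SD, n = 4) and 1.97 ± 0.88 (SD, n = 2). The 5 genes with a whole nuclear copy held only 0.167% to 0.217% of the mitochondrial mRNA counts. The mitochondrial shares and the ratio therefore rest on the other genes, of which mt-Co1 and mt-Nd4 are uncertain in their copied parts. Mitochondrial rRNA, from the genes mt-Rnr1 and mt-Rnr2, took 0.285%, 0.550%, 0.303% and 0.274% of counts in the controls and 0.334% and 0.217% in het 1 and het 2, so het 2 was the lowest library there too. Het 2 was also lowest in the blood, mesenchyme, surface ectoderm and microglia markers, and had the highest sums of MGE and neuron markers. The microglia markers summed to 0.305 CPM in het 2 and to 1.66 to 63.1 CPM in the controls. In endothelium (7.16 CPM) and dorsal telencephalon markers (38.8 CPM) het 2 was above control 2, at 4.9 and 27.3 CPM. The part of all these markers in the ratio was not tested.

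**Figure D4:**
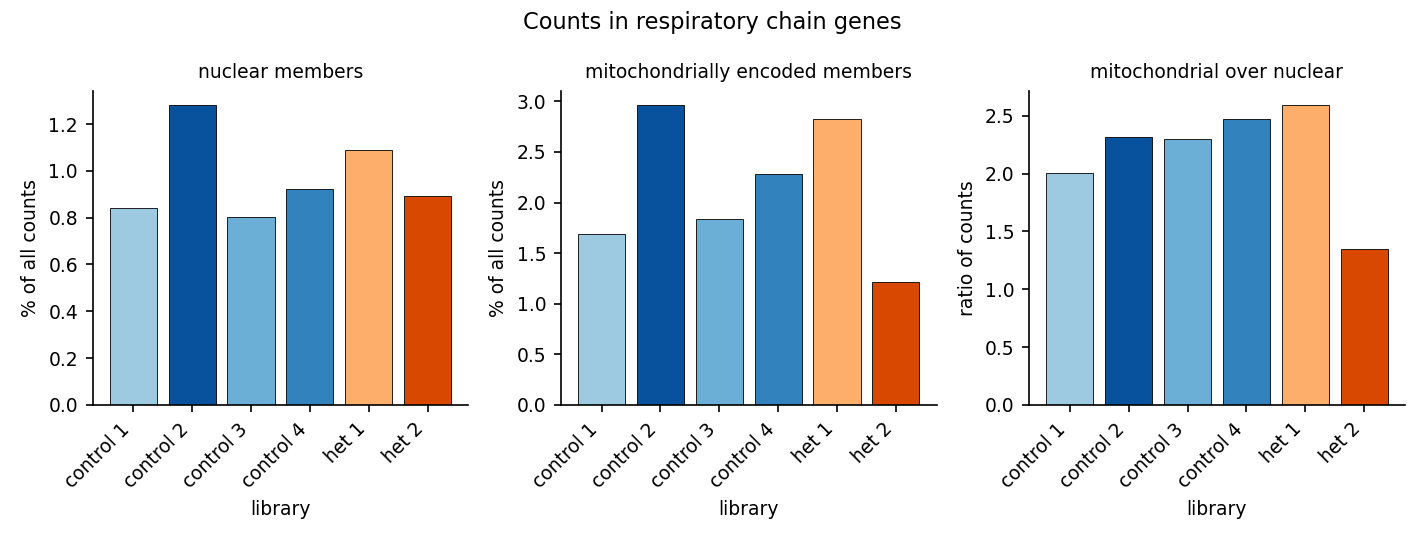
Share of all counts in nuclear members (left) and in mitochondrially encoded members (middle), and the ratio of the second to the first (right), in each library. Het 2 has a nuclear share of 0.895%, within the range of the controls, and the lowest ratio, 1.35.

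Across libraries the nuclear members varied together, and control 2 and het 1 stood above the others in both genotypes. The median log2 deviation of the 91 nuclear members from the mean over controls was -0.17, 0.55, -0.28 and -0.08 in controls 1 to 4 and 0.22 and -0.07 in het 1 and het 2. Control 2 was the highest library for 79 of 91 genes, het 1 the next highest for 73, and control 3 the lowest for 70. By role, the median in control 2 ran from 0.38 (core of complex I) to 0.61 (complex III), and in het 1 from 0.10 (assembly factors of complex I) to 0.28 (complex II). The exceptions, for which control 2 was not the highest, were 12 genes, with Sdha, Ndufs1, Ndufa10, Cox7a2l and Atp5s among them. Such ranks were not counted over all tested genes, whose median deviation was 0.01 in control 2 and -0.01 in het 1. Outside the members it was 0.49 and 0.17 for genes of the defence against reactive oxygen. For mitochondrial ribosomal proteins it was 0.34 and 0.14, and for regulators of respiratory genes -0.25 and -0.08. The same pair of libraries had 0 Y-linked reads and low values of long transcripts. All tested genes with exons under 1000 nt had a median of 0.39 in control 2, and the nuclear members with exons of 1000 nt or more had 0.53. Exon length merges all transcripts of a gene, and some of these members have short principal transcripts, such as Atp5l with 544 nt of 6443 nt, so this does not set long members against short genes. Tested genes with exons between 1000 and 8000 nt had a median of 0.04. In het 1 these medians were 0.17, 0.23 and 0.02. Whether RNA quality, embryo sex or another property of these libraries sets the pattern was not tested.

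**Figure D5:**
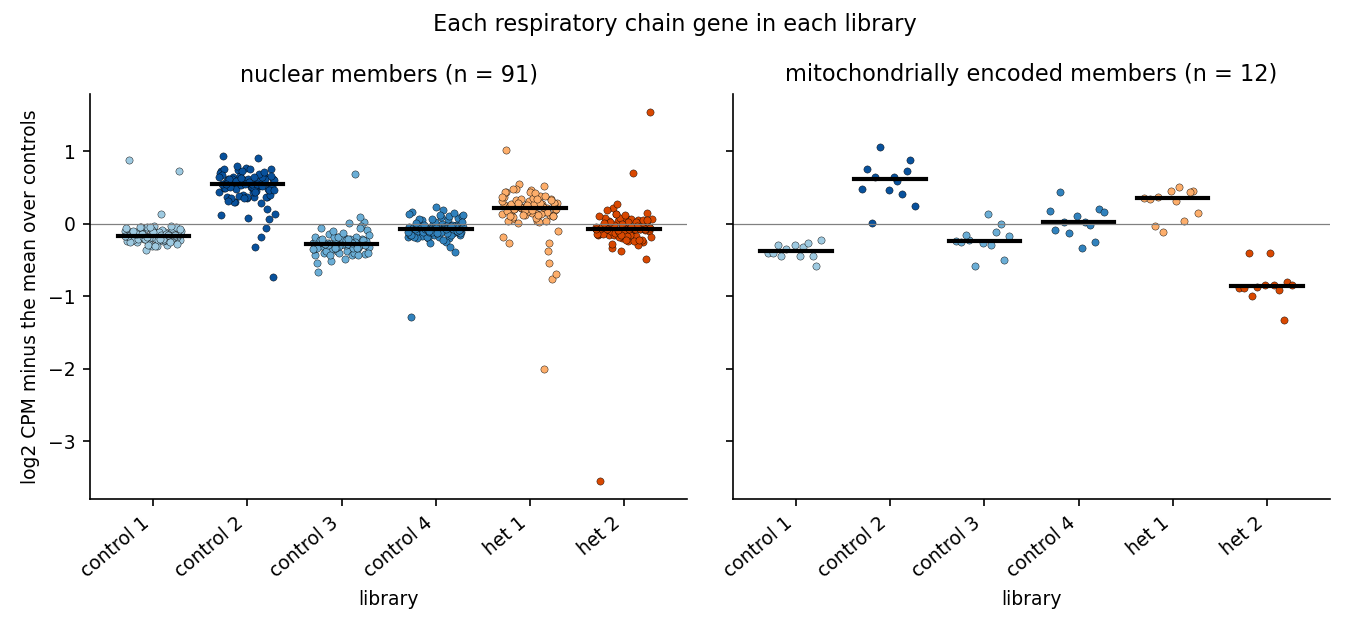
Log2 CPM minus the mean over controls of each tested member (points) in each library, for nuclear (left) and mitochondrially encoded genes (right), with medians as black lines. Control 2 and het 1 lie above 0 for both groups (0.55 and 0.22 for nuclear, 0.62 and 0.35 for mitochondrial genes), and het 2 lies at -0.07 for nuclear and at -0.86 for mitochondrial genes.

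The promoters of the nuclear members were described by the motifs of factors known to bind many respiratory genes, and no link of a motif to the values by library was tested. The table of RefSeq promoters (GRCm38.p6, 250 bases before to 50 after a start site) held 79 promoters of 73 nuclear members. The 8 letters GCGCATGC, the core of the site of nuclear respiratory factor 1 (NRF1), or their reverse complement GCATGCGC were found in 13 promoters, or 16.5%, against 4.75% of 14922 promoters of tested genes and 2.71% of all 32851 promoters. The 7 letters CCGGAAG, a core bound by ETS factors such as the GA-binding protein, or the reverse complement CTTCCGG were found in 17, or 21.5%, against 15.5% and 8.86%. Both motifs were found in 5 promoters, or 6.33%, against 1.03% and 0.521%. A match is a description of these letters and shows no binding, and the letters of a site on both strands can overlap. The 250 bases upstream of the start site are shown for Cycs (chr6:50566570-50566819), a textbook NRF1 gene, for Cox6a1 (chr5:115348959-115349208), which holds both motifs, and for Uqcrh (chr4:116075071-116075320), which holds the ETS core close to the start. All 3 are on the minus strand and are written 5′ to 3′ in the sense of the gene, with motif letters in capitals.
Cycs: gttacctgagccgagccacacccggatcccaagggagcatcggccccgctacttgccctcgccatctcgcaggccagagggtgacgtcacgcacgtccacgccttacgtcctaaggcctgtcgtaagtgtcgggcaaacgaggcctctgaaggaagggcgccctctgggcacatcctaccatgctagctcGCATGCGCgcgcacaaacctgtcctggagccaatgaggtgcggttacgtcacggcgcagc
Cox6a1: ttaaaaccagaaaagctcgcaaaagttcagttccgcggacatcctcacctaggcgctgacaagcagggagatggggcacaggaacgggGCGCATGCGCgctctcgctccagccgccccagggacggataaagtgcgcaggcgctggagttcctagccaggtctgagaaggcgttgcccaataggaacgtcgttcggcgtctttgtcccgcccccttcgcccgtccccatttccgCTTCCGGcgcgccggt
Uqcrh: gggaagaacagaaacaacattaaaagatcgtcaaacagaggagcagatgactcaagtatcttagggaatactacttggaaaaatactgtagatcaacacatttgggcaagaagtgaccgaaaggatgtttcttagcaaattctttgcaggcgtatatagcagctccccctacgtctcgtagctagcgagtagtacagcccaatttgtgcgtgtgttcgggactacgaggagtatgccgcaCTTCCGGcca
Cycs and Uqcrh hold a single run of capitals each. In Cox6a1 the NRF1 core and its reverse complement overlap in a run of 10 letters, and the ETS core follows nearer the start.

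Genes with related roles outside the name rule gave few values apart from the background. The regulators Nrf1, Gabpa, Esrra, Ppargc1a and 6 others had 0 of 10 genes called by edgeR or DESeq2 and 0 at an unadjusted p under 0.05, with a median log2 fold change of -0.12. Of the 10, 1 lay below all controls in both heterozygous libraries and 0 above. Of 15 genes for the upkeep and transcription of mitochondrial DNA 0 were called by edgeR or DESeq2, with a median of -0.06. In edgeR 1 of the 15 had an unadjusted p under 0.05, where 5.72% of all tested genes did. That gene was Polg, the mitochondrial DNA polymerase, which stood at 50.6, 44.0, 55.7 and 56.0 CPM in controls 1 to 4 and at 34.3 and 41.2 CPM in het 1 and het 2, with an adjusted p of 0.85 (edgeR). Both heterozygous libraries were below all controls. Mterfd2, of the mitochondrial transcription termination factor family, lay the other way, at 13.5, 14.7, 13.3 and 13.3 CPM in the controls and at 19.2 and 16.9 CPM, above all controls, with an adjusted p of 0.85 (edgeR). Over this list of 15 both heterozygous libraries were above all controls for 2 genes and below for 1. Of all tested genes 6.17% were above and 8.14% below. Polrmt, the mitochondrial RNA polymerase, stood at 39.8, 21.7, 39.8 and 35.9 CPM in the controls and at 17.7 and 29.3 CPM. It was lowest in control 2 and het 1, in which the mitochondrial genes were high, and a link was not tested. The whole list was not low there, with median deviations of 0.11 in control 2 and 0.01 in het 1. Among 25 assembly factors of complexes II to V 0 were called by edgeR or DESeq2. Of these, 1 lay above all controls in both heterozygous libraries and 1 below. In edgeR 1 of the 25 had an unadjusted p under 0.05, beside the same 5.72% of all tested genes. This was Cox17, a copper chaperone. It stood at 0.992, 0.640, 1.59 and 1.25 CPM in the controls, at 0.305 CPM in het 2 and was listed at 0 in het 1, with an adjusted p of 0.85 (edgeR). Aifm1 and Acad9, which take part in complex I assembly, were below all controls in both heterozygous libraries, at 30.8 and 29.7 CPM against 32.8 to 42.6 CPM for Aifm1 and at 41.8 and 43.0 CPM against 44.9 to 51.2 CPM for Acad9. That is 2 of 8 genes of their list, with 0 above all controls, where 8.14% of all tested genes were below and 6.17% above. The 8 genes had a median of 0.07, and 9 genes of the defence against reactive oxygen, such as Sod2 and Prdx3, had a median of 0.02. The mitochondrial rRNA genes mt-Rnr1 and mt-Rnr2 had a median of -0.37. The 75 tested genes for mitochondrial ribosomal proteins had a median of 0.04 with 49 above 0, and their median deviation was 0.34 in control 2 and 0.14 in het 1. Both heterozygous libraries were above all controls for 2 of them, among which Mrps18a stood at 22.9 to 30.6 CPM in the controls and at 31.7 and 30.9 CPM, and below for 1. The 13 genes of the citrate cycle had a median of 0.06 with 8 above 0, and 0 genes of the ribosomal, citrate cycle, oxygen defence, rRNA and complex I assembly lists were called by edgeR or DESeq2 or had an unadjusted p under 0.05.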

How the data were processed

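RNA-seq was done on 6 samples, 4 control and 2 heterozygous, grouped by the genotype in the labels. Per the labels' protocols, sorted cells were lysed and frozen, RNA was column-purified, and a NuGEN mRNA kit was used for the libraries. STAR, HTSeq, Trim Galore and the build mm10 are named, with no versions, per the submitters' processing notes. Annotation, strandedness and the treatment of reads with several matches have no entry in the sources used here (not given). The authors deposited a table of raw counts per gene (38561 genes) and a table of 18065 genes with a normalized signal, each count over its library's size factor. The second table chose the members and fed a single alternative, and the raw counts fed every other result. No column belonged to no sample.

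Genes were kept by filterByExpr (16495) and tested with edgeR 4.0.16 in R 4.3.3 (TMM, robust quasi-likelihood test, two-sided, Benjamini-Hochberg over all tested genes, threshold 0.05). A log2 fold change is heterozygous over control, and its SE is its size over the root of F. Deviations by library use log2 CPM with a prior count of 2. CPM per kb divides by the length of the principal transcript of GENCODE M21 (GRCm38, the assembly behind mm10), which held all 104 IDs. Of equally ranked transcripts the longest was taken, so CPM per kb is lowered where a shorter transcript is the one expressed. Sequences are from GRCm38 and, for promoters, RefSeq. With 4 against 2 samples an exact two-sided permutation p cannot be under 0.0667. The fits were tested on simulated data. Alternatives were DESeq2 1.42.0, limma 3.58.1 (voom, and trend on the deposited normalized values), other scalings and filters, a block, a covariate, a length and GC correction, and left-out libraries.

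The members and lists were chosen with earlier results of these data known. Named were all mitochondrial members, complex II, Cyc1, Cycs, paired isoforms, per complex the 3 smallest p and the highest level per length, nuclear members outside the control range, and up to 3 genes of each related list. The result for 1 gene that the rule names is not reported here.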

Additional observations from a re-analysis of the deposited data

Results flagged for a closer look

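In each group of 4 controls the highest or lowest library was set against the gap to its nearest neighbour, as a share of the whole range, and compared with Dixon's 95% critical value. Of 56 values checked 15 exceeded it, where 9.73% of all tested genes did. The rate of about 1 in 20 by chance holds for independent, normally distributed groups, and these genes varied together, so it is no measure for this count. Control 2 was the library apart for 11 of the 14 genes. The share was 0.977 for Uqcrq, 0.932 for Cyc1, 0.902 for Cox7a2, 0.892 for Ndufa4, 0.888 for Ndufa11, 0.875 for Ndufaf3, 0.871 for Cox4i1, 0.863 for Sdhc, 0.849 for Cox8a, 0.838 for Cox7b and 0.83 for Ndufaf1, and control 2 was the high library in each. Control 2 was also the high one for the share of counts in mitochondrial rRNA (0.895). In Sdha (0.885) and Cox6a2 (0.859) control 4 was the high library, and in Cox4i2 (0.923) control 3 was. Over all tested nuclear members 33 of 91, or 36.3%, had such a control, where 9.73% of all tested genes did.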

How the results depend on the processing

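Counts of called members stayed at 0 for nuclear and for mitochondrial genes in all 19 alternatives, and the smallest adjusted p of a member in any of them was 0.143. Over all tested genes DESeq2 called 74 and the sample code number as a replicate block called 11, and the other 17 alternatives called 0. Only control 1 and het 2 share a code number with the other genotype, so the block rests on a single pair and its meaning is not in the labels. The median of the nuclear members ranged from -0.10 to 0.27, and leaving out a library gave that same range; it was below 0 without control 1 (-0.03), control 3 (-0.07) or het 1 (-0.10) and with Y-linked reads as a covariate (-0.06). The median of the mitochondrial members was -0.67 without control 2 and het 1 together, and leaving out single libraries moved it from -0.92 to 0.29. It was -0.50 with Y-linked reads as a covariate and -0.54 with the block. Without het 2 the sign turned for mt-Nd2 (0.01) and mt-Nd4 (0.13), whose values over left-out libraries ranged from -0.93 to 0.01 and from -0.85 to 0.13. The cause was not tested, and with a heterozygous library left out, the lone sample is assumed to vary like the controls. Of 49 named and tested members 34 changed sign in at least 1 alternative. Few reads limit Cox6a2, with 16 reads in all, and mt-Atp8, with at most 7 reads in a library. As mt-Atp8 lies between mt-Co2 and mt-Atp6, its few reads cannot be put down to depth, and how reads there were counted is not given.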
